A study of Mus musculus with 19 samples.

Results

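The 10 genes described here are the 5 mouse Rel family subunits of NF-kB (Nfkb1, Nfkb2, Rela, Relb and Rel) and 5 of its inhibitors (Nfkbia, Nfkbib, Nfkbie, Nfkbiz and Tnfaip3). They were chosen by name, whatever their values, from the 55487 genes in each deposited table, and all 10 passed the filter on low counts in both comparisons. In the first comparison, 9 spinal cord libraries of mice lacking miR-146a (knockout, KO) were set against 4 of wild-type (WT) mice, all from snap-frozen cords. In the second, 3 libraries from cultured motor neurons transfected with a miR-146a LNA were set against 3 from cultures given a control LNA. An LNA here is a chemically locked oligonucleotide that binds a microRNA and blocks it. All 6 cultures were wild-type motor neurons made with retinoic acid and the Smoothened agonist SAG from RW.4 mouse embryonic stem cells, and both LNAs were given at 10 nM with Lipofectamine 2000 for 72 h. The labels give no age, sex or strain for the mice and do not say that each library is a separate animal or differentiation, so each p-value speaks only of the variation among these libraries, which may be technical in part.

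NF-kB is a family of dimeric transcription factors that sit in the cytoplasm bound to inhibitory IkB proteins. Signals from Toll-like, interleukin-1 and tumour necrosis factor receptors activate the IKK kinase, which marks IkB for destruction and lets the dimers enter the nucleus. Many of the factor's own genes are among its targets, so Nfkbia and Tnfaip3 are classical feedback inhibitors, and Nfkb1, Nfkb2, Relb and Rel are induced as well. In the nervous system the pathway is best known from microglia and astrocytes in inflammation. miR-146a is itself induced by NF-kB and lowers Irak1 and Traf6, which stand upstream of IKK. The comparisons therefore bear on whether the subunits and inhibitors stand at other RNA levels where the microRNA is lost or blocked.

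The mature sequences of miR-146a and its paralogue are shown because their shared seed decides which messages can pair with them. The RefSeq table of build GRCm38.p6 places miR-146a-5p on the minus strand at chr11:43374435-43374456 and miR-146b-5p on the plus strand at chr19:46342790-46342811. The hairpin that holds miR-146b-5p starts 30.376 kb past the end of Nfkb2. Capitals mark bases 2 to 8, which are identical in both mature sequences.
mmu-miR-146a-5p: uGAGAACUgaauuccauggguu
mmu-miR-146b-5p: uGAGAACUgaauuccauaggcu
Of the members' longest 3′ UTRs in GENCODE M21, 2 of 10 held a match to this seed, searched on the sense strand as AGTTCTC or GTTCTCA, against 18.2% of 21020 protein-coding genes. Rel held 6 matches in a 3′ UTR of 5418 bases. The site nearest the transcript's end joins both motifs into an 8-base match and begins at position 5256 of the UTR. Nfkbib held 1 match, at position 144 of 763. Relb, reported as a miR-146a target elsewhere, held none, and neither did the other 7 members. Irak1 and Traf6 each held a match under the same search. Long 3′ UTRs hold more matches, and of 710 genes with one of 4500 to 6500 bases, Rel included, 54.9% had at least 1. The median of these genes was 1 match, and Rel was the 1 gene among them with 6 or more (0.14%). A match is a description of the letters and does not show that the site is used. The sites of Rel at chr11:23736991-23737020 and chr11:23741772-23741801 and that of Nfkbib at chr7:28758852-28758881, all on the minus strand, are shown as sense DNA with the 8 bases at the seed position in capitals.
Rel, position 5256: atttttttttaAGTTCTCAagatactggta
Rel, position 475: ttctttttagaTGTTCTCAttccgtttgat
Nfkbib, position 144: ctctcaggcttGGTTCTCAggcacatcctt

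The sequences just before the transcription starts are shown because several members carry there the binding motif of the factor they form or restrain. The RefSeq table (GRCm38.p6, 250 bases before to 50 after each start) held a window for 7 of the 10 members. A match to the 10-base kappaB consensus, searched on both strands, was found in 5 of these 7 genes, Nfkbia, Nfkbie, Tnfaip3, Rel and Nfkb2, against 9.55% of the 27025 genes with a window. Nfkbib and Rela had no match, which says only that these letters are not in these windows. The stretch before the start of Nfkbia lies at chr12:55492648-55492772 (minus strand), that of Tnfaip3 at chr10:19015411-19015535 (minus strand), that of Rel at chr11:23770970-23771094 (minus strand) and that of Nfkbie at chr17:45555575-45555699 (plus strand). For Nfkb2, whose window lies inside an exon of a longer transcript, 30 bases at chr19:46304689-46304718 (plus strand) are given. Capitals mark the kappaB matches, and the longer runs in Rel and Nfkb2 are 2 overlapping matches each.
Nfkbia: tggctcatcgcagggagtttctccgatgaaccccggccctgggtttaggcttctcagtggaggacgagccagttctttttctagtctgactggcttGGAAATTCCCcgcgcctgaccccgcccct
Tnfaip3: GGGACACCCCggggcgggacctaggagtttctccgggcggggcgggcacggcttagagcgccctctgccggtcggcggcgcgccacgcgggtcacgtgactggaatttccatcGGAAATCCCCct
Rel: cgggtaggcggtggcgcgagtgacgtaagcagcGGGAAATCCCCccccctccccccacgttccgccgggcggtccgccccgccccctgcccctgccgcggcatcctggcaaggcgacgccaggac
Nfkbie: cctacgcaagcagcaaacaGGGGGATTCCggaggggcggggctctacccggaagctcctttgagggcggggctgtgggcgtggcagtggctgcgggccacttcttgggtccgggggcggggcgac
Nfkb2: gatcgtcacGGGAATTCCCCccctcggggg

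Total counts ran from 28163289 to 39577247 per cord library and from 40647549 to 65471742 per culture. The miR-146a precursor gene, Mir146, had 1 count over the 9 KO cords and 0 over the 4 WT cords, so these libraries do not check its loss, and both groups of cultures had 0. Pttg1, which stood between 1.06 and 1.81 normalised CPM in KO replicates 1 to 8 and between 14.9 and 17.4 in WT cords, had 13.04 in the library labelled knockout replicate 9, which thus went against its label on this gene and also held 1947 normalised CPM of Sod1, 8.05 times the mean of the other KO libraries. KO replicate 7 stood apart in skeletal muscle and fibroblast markers. Its summed muscle markers were 3888 normalised CPM, against 10.8 at most in WT cords. In the library labelled knockout replicate 9, Bcl3, Ccl2 and Il1rn, given below, ran with the label. They were named by the smallest p in a test that counted this library as KO, which favours such a result. Of the other NF-kB targets that DESeq2 called, Ccl5 had 1.43 normalised CPM in it, against 0.802 at most in WT cords. Lcn2, Cxcl10, Ptgs2 and Icam1 had 2.21, 0.511, 0.647 and 2.83 in it and lay within the WT range. The red blood cell genes Alas2 and Slc4a1 also ran with the label. They had 9.36 and 0.817 normalised CPM in it, against 1.21 and 0.342 at most in WT cords. The globin genes Hbb-bs, Hbb-bt and Hba-a1 went against the label and lay within the WT range. Its summed red blood cell markers, 30.5 normalised CPM, also lay within the WT range of 17.3 to 34.6. Fold changes of members in cords that KO replicate 7 or the library labelled knockout replicate 9 moved by over 1.5 times are given without it below. Other genes were not checked in this way. Of 7 microglial markers all were detected in cords, and of 7 motor neuron markers all were detected in the cultures.

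In KO cords, 9 of the 10 members had a positive log2 fold change over WT cords, with a median of 0.46, and none passed the test. Over all 22174 genes tested, 53.1% were positive and the median was 0.02. edgeR's robust quasi-likelihood test called 0 of 10 members at an adjusted p of 0.05, where it called 0.0% of all genes. At an unadjusted p under 0.05 it put 3 members higher in KO cords (Nfkb2, Nfkbiz and Tnfaip3) and none lower, where 7.53% of all genes were higher and 6.8% lower at that level. DESeq2 called 1 member (Tnfaip3), where it called 1.75% of all genes, and limma called 0, where it called 0.0135%. The values below are normalised CPM, which are CPM scaled by TMM factors within each material.

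Among the subunits, Nfkb2, the precursor of p52 and a carrier of the noncanonical pathway, differed most in fold. It had 17.5, 9.58, 11.6, 16.8, 12.3, 12.4, 38.4, 12.6 and 7.69 normalised CPM in KO replicates 1 to 9, against 7.55, 8.48, 7.93 and 9.68 in the 4 WT cords. KO replicate 7 stood far above the others, 7 of 9 KO libraries exceeded every WT library, and KO replicate 2 and the library labelled knockout replicate 9 lay within the WT range. At least 7 of 9 KO libraries above every WT library was met by 7.21% of all genes. The log2 fold change was 0.87 (SE 0.36, edgeR adjusted p = 0.317), and without KO replicates 7 and 9 it was 0.67 (SE 0.15, adjusted p = 0.121). The exons of Nfkb2 share bases with those of Psd and AC114539.1 on the other strand, and since the strand setting of the counting is not given in the sources used here, its count could hold reads of theirs.

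Nfkb1, the precursor of the p50 subunit, was the subunit with the smallest SD among WT libraries for its level. It had 61.5, 50.2, 55.1, 61.5, 52.0, 56.3, 96.6, 52.8 and 55.5 normalised CPM in KO replicates 1 to 9, against 50.4, 51.9, 51.2 and 49.5 in WT cords. All KO libraries but replicate 2 exceeded every WT library, most of them by little, where 3.11% of all genes had at least 8 of 9 KO libraries above. The log2 fold change of 0.25 (SE 0.14, edgeR adjusted p = 0.430) came to 0.14 (SE 0.061, adjusted p = 0.338) without KO replicate 7, so this library alone moved the value by over 1.5 times.

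Rela, the activating subunit p65, spanned 37.7 to 64.0 normalised CPM in KO cords (median 41.9), against 39.3, 40.7, 34.5 and 41.2 in WT cords. The groups overlapped, with 6 of 9 KO libraries above every WT library, where 11.9% of all genes had at least 6, and the log2 fold change was 0.24 (SE 0.12, edgeR adjusted p = 0.386). Relb, the partner of p52, spanned 7.52 to 21.8 in KO cords (median 10.5), against 9.32, 10.4, 7.93 and 9.59 in WT cords, a log2 fold change of 0.42 (SE 0.24, edgeR adjusted p = 0.419). Rel, known as c-Rel and best studied in lymphocytes, spanned 7.21 to 18.6 in KO cords (median 8.92), against 8.14, 9.51, 6.86 and 6.99 in WT cords, a log2 fold change of 0.38 (SE 0.22, edgeR adjusted p = 0.433). For Relb 5 of 9 KO libraries lay above every WT library, where 18.3% of all genes had at least 5. For Rel 4 of 9 did, a lower bar that at least as large a share of all genes met. The lowest KO libraries of both genes lay inside or below the WT range. Without KO replicate 7 the log2 fold change of Rel was 0.23 (SE 0.14, edgeR adjusted p = 0.471), over 1.5 times smaller.

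Of the inhibitors, Tnfaip3, which encodes the ubiquitin-editing enzyme A20, and Nfkbiz had the highest folds, and which of these came first changed with the library left out. It had 10.6, 6.11, 8.30, 15.2, 7.08, 11.3, 16.0, 8.33 and 4.70 normalised CPM in KO replicates 1 to 9, against 5.03, 4.65, 3.21 and 6.84 in WT cords. Here 7 of 9 KO libraries exceeded every WT library, and KO replicate 2 and the library labelled knockout replicate 9 lay within the WT range. Its mean was 9.74 ± 3.90 normalised CPM in KO cords and 4.94 ± 1.496 in WT cords (SD, n = 9 and 4). The log2 fold change was 0.98 (SE 0.32, edgeR adjusted p = 0.292), 1.07 (SE 0.29, adjusted p = 0.210) without the library labelled knockout replicate 9, and 0.99 with DESeq2 (adjusted p = 0.0464), the one member call of that tool. The adjusted p ran from 0.0464 to 0.569 over 21 settings.

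Nfkbiz encodes the nuclear protein IkBzeta, which acts with p50 on secondary response genes. It had 13.3, 6.22, 11.3, 16.5, 9.90, 9.06, 35.9, 9.99 and 8.37 normalised CPM in KO replicates 1 to 9, against 5.998, 5.73, 6.70 and 8.94 in WT cords. KO replicate 7 had more than any other library, and 7 of 9 KO libraries exceeded every WT library, with KO replicate 2 and the library labelled knockout replicate 9 inside the WT range. The log2 fold change was 0.97 (SE 0.41, edgeR adjusted p = 0.324), and 0.64 (SE 0.22, adjusted p = 0.288) without KO replicate 7, a difference of over 1.5 times as a log2 value.

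Nfkbia encodes IkBalpha, the inhibitor that is degraded and resynthesised fastest. It had 38.7, 23.7, 41.1, 49.0, 39.0, 55.7, 76.4, 49.0 and 21.5 normalised CPM in KO replicates 1 to 9, against 23.9, 27.4, 34.6 and 29.8 in WT cords. The KO libraries fell on both sides of the WT range, 7 above it and 2 (replicate 2 and the library labelled knockout replicate 9) below it. The log2 fold change was 0.60 (SE 0.29, edgeR adjusted p = 0.361), and 0.69 (SE 0.25, adjusted p = 0.251) without the library labelled knockout replicate 9.

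Nfkbie, which encodes IkBepsilon, spanned 4.30 to 12.5 normalised CPM in KO cords (median 5.06), against 5.66, 3.35, 3.43 and 5.61 in WT cords, and the groups overlapped (log2 fold change 0.50, SE 0.29, edgeR adjusted p = 0.427). Without KO replicate 7 its log2 fold change was 0.32 (SE 0.21, edgeR adjusted p = 0.494). Nfkbib, which encodes the slower-turning IkBbeta, was the exception in sign. It had 31.6, 32.4, 34.8, 30.1, 35.8, 31.8, 30.2, 33.1 and 25.0 normalised CPM in KO replicates 1 to 9, against 32.4, 34.2, 32.04 and 37.9 in WT cords. None of the KO libraries exceeded every WT library and 5 of 9 lay below all of them, where 18.8% of all genes had at least 5 of 9 below. Its log2 fold change was -0.11 (SE 0.08, edgeR adjusted p = 0.536), and it was -0.06 without WT replicate 4 and -0.07 without the library labelled knockout replicate 9. The exons of Nfkbib share bases with Sirt2 and Ccer2 on the other strand, so its count carries the same doubt as that of Nfkb2.

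**Figure D1:**
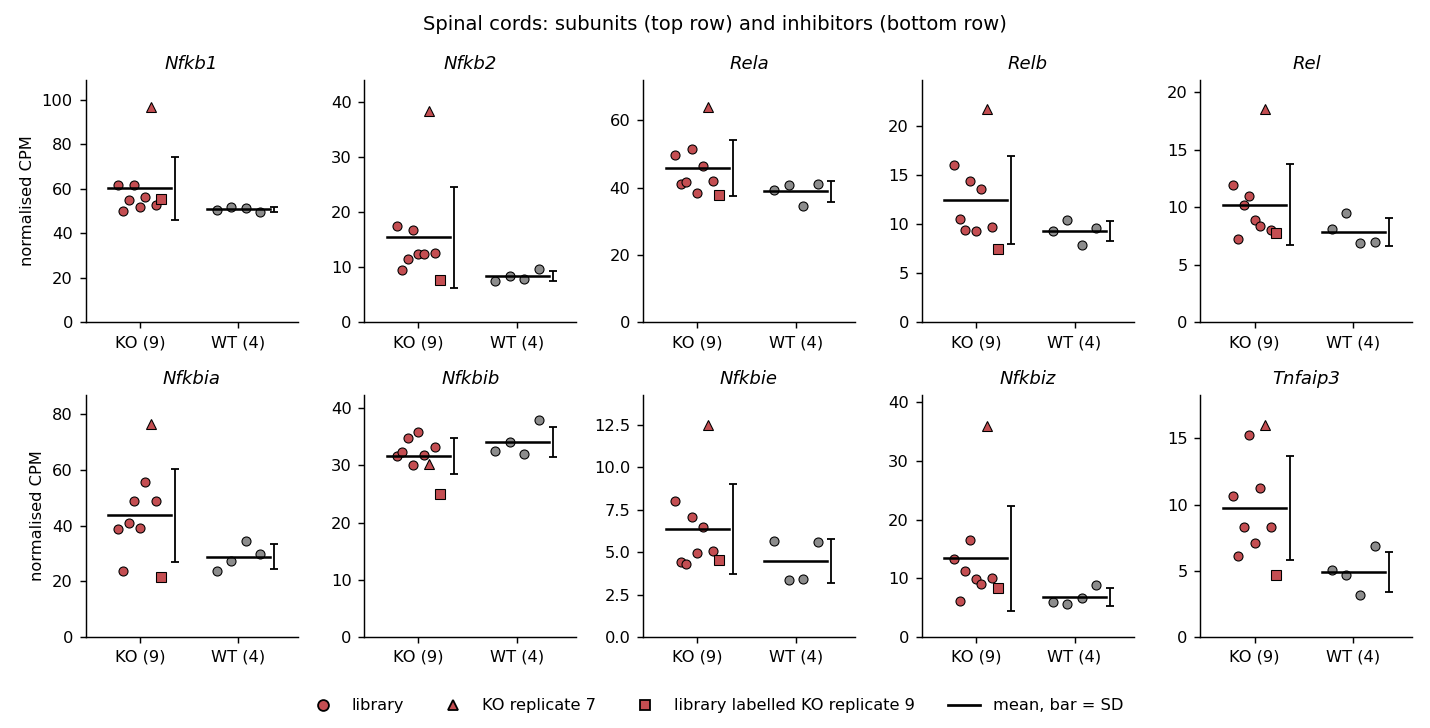
Normalised CPM of the 5 subunits (top row) and 5 inhibitors (bottom row) in 9 KO and 4 WT cord libraries. Each point is 1 library, the line is the mean and the bar the SD; the triangle is KO replicate 7 and the square the library labelled knockout replicate 9. KO replicate 7 is the highest library in 9 of the 10 panels, while Nfkbib, at 25.0 to 35.8 in KO cords, shows no such spread.

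The members went up and down together from cord to cord, apart from Nfkbib. KO replicate 7 was the highest KO library for 9 of 10 members, with a median log2 ratio over the WT mean of 1.32, followed by KO replicates 1 (0.69), 4 (0.64) and 6 (0.46). KO replicate 2 (-0.02) and the library labelled knockout replicate 9 (-0.06) stood at the WT level by this measure. Each had 1 member above every WT library, and they had 1 and 3 members below every WT library in the same order. Over the 13 cord libraries, the 36 pairs of members other than Nfkbib had Pearson r of 0.66 to 0.97 on the log2 scale (median 0.85), while the 9 pairs with Nfkbib had r of -0.36 to 0.07. Within the 9 KO libraries alone the 36 pairs had r of 0.66 to 0.97 (median 0.89). Over the 11 cords without KO replicate 7 and the library labelled knockout replicate 9, their r ran lower, from 0.38 for Rel with Nfkbia to 0.95 (median 0.73). The points of these correlations are the same libraries for every pair, so they share depth, scaling and cell makeup. Without the library labelled knockout replicate 9 alone, 6 of 10 members had an unadjusted p under 0.05 in edgeR, all higher in KO cords, where 8.47% of all genes did, and none was called, where 0.00918% of all genes were. Without both libraries 7 of 10 members had an unadjusted p under 0.05, all higher, where 8.94% of all genes were, and none passed the adjusted threshold, where 0.0371% of all genes did.

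**Figure D2:**
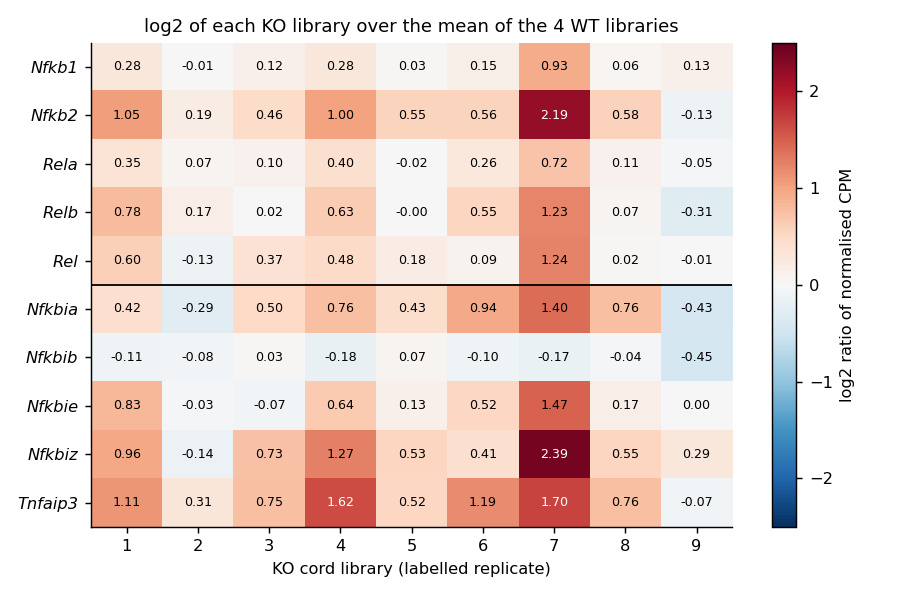
log2 ratio of each of the 9 KO cord libraries (columns) to the mean of the 4 WT libraries for each member (rows), subunits above the line and inhibitors below it. Column 7 is the darkest red, with 2.39 for Nfkbiz and 2.19 for Nfkb2. Columns 2 and 9 have medians of -0.02 and -0.06, with values from -0.29 to 0.31 and from -0.45 to 0.29. The row of Nfkbib stays between -0.45 and 0.07.

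Markers of other cell types varied among the KO cords too. Among the KO cords, summed markers of microglia, astrocytes, motor neurons and neural progenitors were highest in the same 3 libraries as the members. The summed level of 7 microglial markers was 229 to 864 normalised CPM in KO cords (median 358) and 253 to 310 in WT cords, and all 7 had positive fold changes, 4 of them with an unadjusted p under 0.05 in edgeR and none called. KO replicates 7, 4 and 1, which led among the members, also had the 3 highest microglial sums (864, 766 and 733). The 5 red blood cell markers summed to 30.5 to 532 in KO cords and 17.3 to 34.6 in WT cords, and all 5 were higher at an unadjusted p under 0.05, but KO replicate 5 came second by their sum (383). Of the 6 neutrophil and monocyte markers, 5 were tested and all were positive, with sums of 1.97 to 45.0 in KO cords and 1.67 to 3.18 in WT cords. KO replicate 3 came second by this sum (40.2). In KO replicates 3 and 7, S100a8 had 10.4 and 9.15 normalised CPM, S100a9 21.7 and 18.7, and Camp 3.55 and 3.46. In WT cords these genes had 0.684 at most. The marker not tested, Ly6g, stayed under 1 normalised CPM in every cord. The astrocyte markers summed to 4769 to 10997 in KO cords and 4553 to 6346 in WT cords. Among them Gfap was highest in KO replicates 7, 1 and 4 (6056, 5558 and 4669), but Gja1 was lowest of the KO cords in replicate 4 (292). In KO replicates 7, 1 and 4 the motor neuron markers summed to 440, 381 and 316, against 268 to 317 in WT cords. Prph had 213, 192 and 92.5 in these libraries, against 80.7 to 91.4 in WT cords. Mnx1 had 1.84, 1.60 and 4.25, against 3.43 to 4.85. Over all KO cords 5 of the 7 motor neuron markers had negative fold changes, 2 of them with an unadjusted p under 0.05 in edgeR. None was higher at that level. The neural progenitor markers summed to 238, 173 and 187 in KO replicates 7, 1 and 4, against 142 to 170 in WT cords. Nes had 108, 44.0 and 53.7 in these libraries, against 14.2 to 24.1 in WT cords. Hes5 had 0.692, 1.42 and 2.06, against 2.46 to 2.80. Over all KO cords 3 of the 5 neural progenitor markers were positive and 2 negative, with a median log2 fold change of 0.004. At an unadjusted p under 0.05, edgeR put 1 of them lower and none higher. The part of these cells in the members' values was not tested, and in bulk tissue a changed number of cells and a changed amount of RNA per cell cannot be told apart.

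Upstream of the members, the 20 genes of the IKK complex and its activators were 16 positive and 4 negative in KO over WT cords, with a median log2 fold change of 0.10, where 53.1% of all genes were positive, and edgeR, DESeq2 and limma called none. At an unadjusted p under 0.05, edgeR put 4 higher and none lower, where 7.53% of all genes were higher. Irak4, a kinase next to the Toll-like receptor adaptor Myd88, averaged 7.98 normalised CPM in KO cords and 4.52 in WT cords (log2 fold change 0.82, SE 0.27, edgeR adjusted p = 0.292). Ripk1, a kinase of tumour necrosis factor signalling, averaged 9.65 in KO cords and 6.39 in WT cords (log2 fold change 0.59, SE 0.20, edgeR adjusted p = 0.292). The known miR-146a targets were closer to even, with log2 fold changes of 0.13 for Irak1 (SE 0.08, edgeR adjusted p = 0.470) and 0.11 for Traf6 (SE 0.09, edgeR adjusted p = 0.554).

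Of the 15 other IkB-like proteins and feedback regulators, 14 were tested in cords, 8 positive and 6 negative, with a median log2 fold change of 0.02. edgeR called none and put 2 higher at an unadjusted p under 0.05 (7.53% of all genes were higher), limma called none, and DESeq2 called Bcl3 (adjusted p = 0.0264). Bcl3, a nuclear IkB-like partner of p50 and p52, had 12.4, 1.72, 6.35, 9.30, 2.86, 5.38, 21.5, 4.34 and 3.20 normalised CPM in KO replicates 1 to 9, against 1.68, 1.73, 1.57 and 2.03 in WT cords. All KO libraries but replicate 2 stood above every WT library, the library labelled knockout replicate 9 included, and the edgeR log2 fold change was 2.08 (SE 0.62, adjusted p = 0.292). Zc3h12a, which encodes the RNase Regnase-1, averaged 5.78 normalised CPM in KO cords and 3.04 in WT cords (log2 fold change 0.93, SE 0.39, edgeR adjusted p = 0.319).

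Downstream, 25 of 28 listed NF-kB target genes were tested in cords, 22 positive and 3 negative, with a median log2 fold change of 0.85. edgeR called none, put 14 higher and none lower at an unadjusted p under 0.05 (7.53% of all genes were higher at that level), and limma called none. DESeq2 called 7 higher, namely Ccl2, Cxcl10, Il1rn, Lcn2, Ccl5, Ptgs2 and Icam1, of which all but Ccl2 and Il1rn were named here after their values were seen. Ccl2, a monocyte chemokine, spanned 0.170 to 5.05 normalised CPM in KO cords (median 0.726), against 0.0311, 0, 0.0629 and 0 in WT cords. Il1rn, which encodes the interleukin-1 receptor antagonist, spanned 0.161 to 3.43 in KO cords (median 0.340), against 0, 0.0567, 0.0315 and 0 in WT cords. For both genes every KO library exceeded every WT library, as did 0.505% of all genes, and the WT levels were below that of 3 counts (0.0758 to 0.107 CPM), so no fold is given.

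In the motor neuron cultures none of the members passed the test. edgeR called 0 of 10 between miR-146a LNA and control LNA cultures, where it called 8.56% of all genes, and 0 of 10 had an unadjusted p under 0.05, where 9.81% of all genes were higher and 13.1% lower at that level. DESeq2 and limma called none either, where they called 11.3% and 11.8% of all genes. Of the 10 log2 fold changes 2 were positive, against 51.5% of all genes, and their median was -0.10, against 0.01 over all 19099 genes tested.

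Among the subunits Nfkb2 was the member whose groups stood apart. It had 1.22, 1.07 and 0.693 normalised CPM in miR-146a LNA cultures, against 1.46, 1.37 and 1.23 in control LNA cultures, and all 3 LNA values lay below every control value, as for 15.1% of all genes. Its log2 fold change was -0.46 (SE 0.29, edgeR adjusted p = 0.385). Relb was positive, with 3.77, 2.87 and 2.53 in miR-146a LNA cultures and 2.79, 2.03 and 2.01 in control LNA cultures, overlapping groups and a log2 fold change of 0.41 (SE 0.22, edgeR adjusted p = 0.291). Rel, the member with 6 seed matches, had 1.75, 1.62 and 2.39 normalised CPM in miR-146a LNA cultures and 2.46, 3.46 and 1.92 in control LNA cultures, which overlapped (log2 fold change -0.44, SE 0.25, edgeR adjusted p = 0.321). Nfkb1 averaged 5.11 in miR-146a LNA cultures and 5.59 in control LNA cultures, and Rela 62.1 and 65.1 in the same order, both with overlapping groups and log2 fold changes of -0.13 (SE 0.16) and -0.07 (SE 0.07). Single cultures moved all 5 values by over 1.5 times with no change of sign. The log2 fold change was -0.25 for Nfkb2 without miR-146a LNA replicate 3, 0.25 for Relb without miR-146a LNA replicate 1 and -0.19 for Rel without control LNA replicate 2. Nfkb1 ran from -0.21 without control LNA replicate 3 to -0.0094 without control LNA replicate 2, and Rela from -0.12 without miR-146a LNA replicate 2 to -0.011 without miR-146a LNA replicate 3.

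Among the inhibitors, Nfkbia was held within a narrow range, with 18.8, 19.1 and 18.0 normalised CPM in miR-146a LNA cultures and 19.5, 18.9 and 19.7 in control LNA cultures (log2 fold change -0.06, SE 0.08, edgeR adjusted p = 0.744). Nfkbib, the other member with a seed match, had 40.2, 36.1 and 34.7 in miR-146a LNA cultures and 39.6, 41.1 and 41.2 in control LNA cultures (log2 fold change -0.14, SE 0.07, edgeR adjusted p = 0.284). For both genes 2 of 3 LNA cultures lay below every control culture and the third lay inside the control range. Nfkbie was positive, with 7.35, 7.59 and 5.27 in miR-146a LNA cultures and 6.31, 5.04 and 5.31 in control LNA cultures (log2 fold change 0.28, SE 0.17, edgeR adjusted p = 0.343). Nfkbiz and Tnfaip3 had log2 fold changes of -0.12 (SE 0.12) and -0.08 (SE 0.15) with overlapping groups. Nfkbie came to 0.18 without miR-146a LNA replicate 2 and 0.43 without miR-146a LNA replicate 3, Nfkbia to -0.03 without miR-146a LNA replicate 3, and Nfkbiz ran from -0.22 without control LNA replicate 1 to -0.03 without control LNA replicate 3. The sign of Tnfaip3 turned when miR-146a LNA replicate 2 (0.01) or control LNA replicate 3 (0.0002) was left out.

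**Figure D3:**
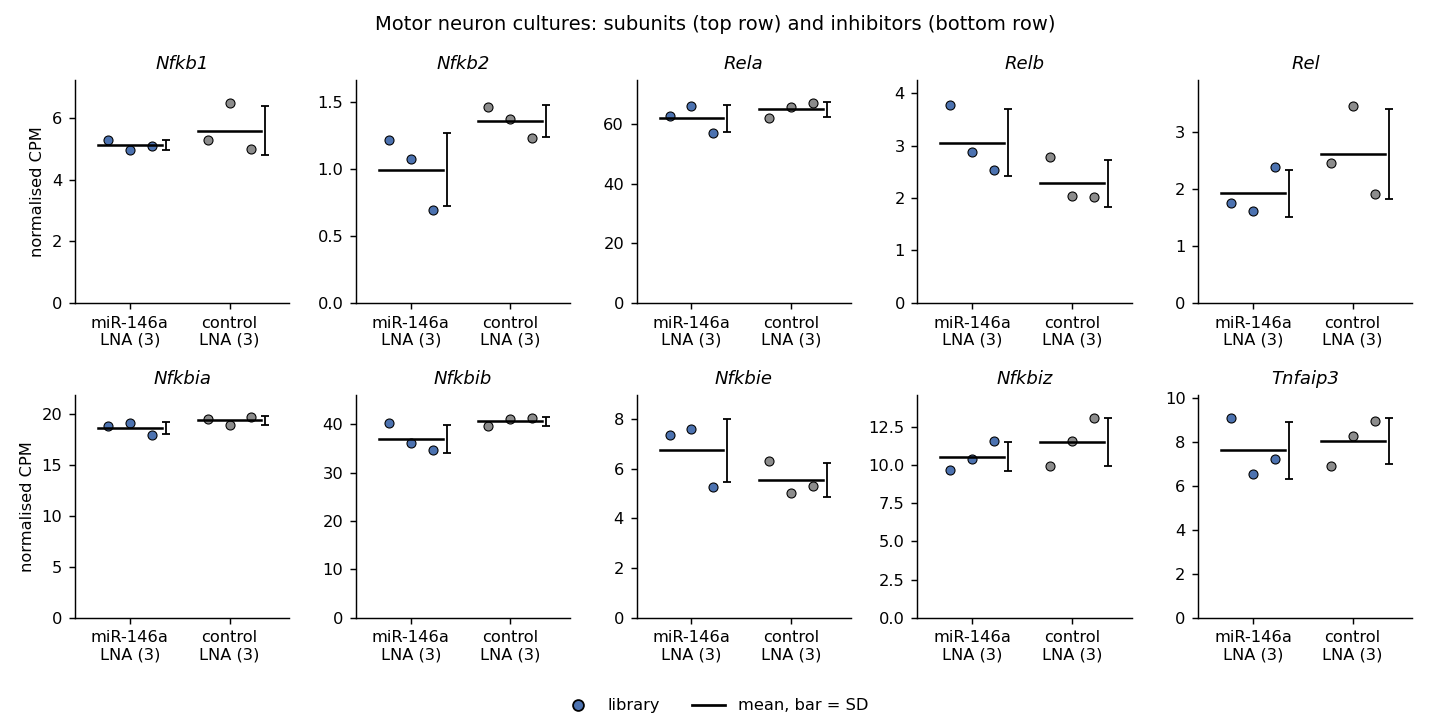
Normalised CPM of the 5 subunits (top row) and 5 inhibitors (bottom row) in 3 miR-146a LNA and 3 control LNA cultures. Each point is 1 culture, the line is the mean and the bar the SD. The groups overlap in 9 of the 10 panels, and in that of Nfkb2 the highest miR-146a LNA value of 1.22 lies just under the lowest control value of 1.23.

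Of the genes around the members in the cultures, edgeR called none of the 20 of the IKK list, the 14 tested of 15 feedback regulators or the 16 tested of 28 targets, and the lists' median log2 fold changes were -0.04, -0.02 and -0.002. Myd88, the adaptor below Toll-like and interleukin-1 receptors, came closest, with 6.33, 5.76 and 5.51 normalised CPM in miR-146a LNA cultures and 4.76, 3.33 and 3.86 in control LNA cultures. Its groups did not overlap, the log2 fold change was 0.56 (SE 0.17, edgeR adjusted p = 0.0514), and both DESeq2 (adjusted p = 0.0151) and limma (adjusted p = 0.0138) called it. Irak1 had 37.0, 36.8 and 35.1 in miR-146a LNA cultures and 32.9, 33.3 and 33.1 in control LNA cultures, again apart, as in 12.8% of all genes, with a log2 fold change of 0.13 (SE 0.07, edgeR adjusted p = 0.264). Traf6 differed by -0.05 (SE 0.07) and Birc2, a ubiquitin ligase of the tumour necrosis factor receptor complex, by 0.16 (SE 0.06, edgeR adjusted p = 0.102). Among feedback regulators Tax1bp1, an A20 adaptor, differed by 0.14 (SE 0.05) and the deubiquitinase Cyld by -0.18 (SE 0.07), and among targets the survival gene Bcl2l1 and the early response gene Ier3 differed by -0.16 (SE 0.06) and 0.35 (SE 0.14), all in log2 and none called by edgeR. limma also called Ier3 and Ptgs2, the second named after its value was seen. Microglial RNA was scarce in these cultures: of the 7 markers, Cx3cr1, P2ry12, Tmem119, Aif1, Csf1r and Siglech stayed under 1 normalised CPM in every culture, with Siglech at 0.

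The difference between the KO effect in cords and the LNA effect in cultures was tested as an interaction over all 19 libraries. edgeR called 0 of 10 members, where it called 1.75% of all genes, and DESeq2 and limma called none, where they called 3.79% and 4.04%. All 10 differences were positive, against 54.7% of all genes. At an unadjusted p under 0.05, edgeR put the KO effect above the LNA effect for Nfkb2 (difference of log2 fold changes 1.35, SE 0.55, adjusted p = 0.264), Tnfaip3 (1.09, SE 0.46, adjusted p = 0.276) and Rel (0.84, SE 0.37, adjusted p = 0.307), and it put none below, where 8.68% of all genes were above and 5.52% below. Without KO replicates 7 and 9, Nfkb2 was called with a difference of 1.15 (SE 0.28, edgeR adjusted p = 0.0208), where 4.08% of all genes were called. For Relb, whose fold changes were 0.42 in KO over WT cords and 0.41 in miR-146a LNA over control LNA cultures, the difference was 0.03 (SE 0.38).

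**Figure D4:**
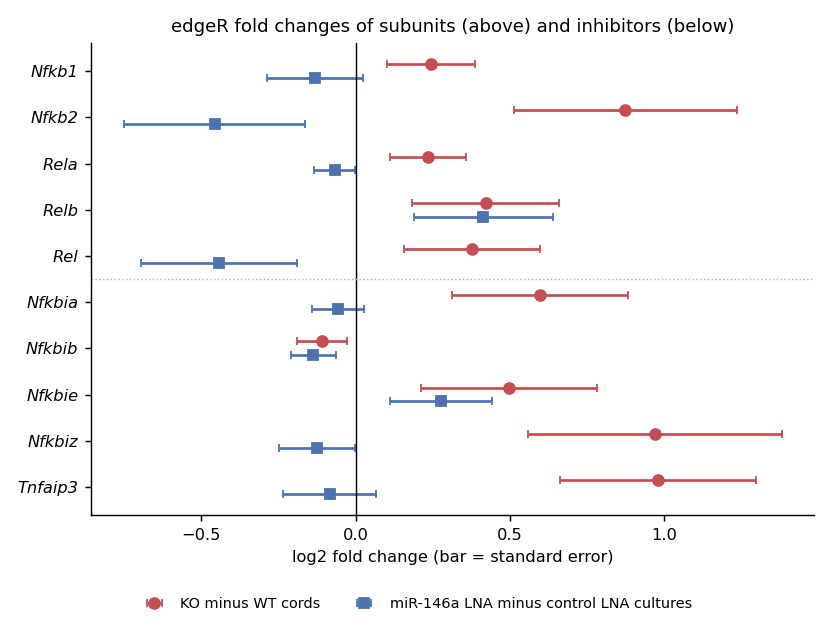
log2 fold change of each member from edgeR, KO minus WT cords (red circles) and miR-146a LNA minus control LNA cultures (blue squares), with bars of 1 standard error. In cords 9 of 10 members lie right of 0, between 0.24 and 0.98, and in cultures only Relb and Nfkbie do.

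The order of the members' levels differed between the materials, set side by side here in the deposited FPKM, which divide by gene length. In cords Nfkbia led, with 27.1 ± 9.60 FPKM in KO cords and 17.8 ± 2.99 in WT cords (SD, n = 9 and 4). Rela had 14.9 ± 2.36 FPKM in KO cords and 12.5 ± 0.90 in WT cords, and Nfkbib 14.6 ± 1.43 in KO cords and 15.5 ± 1.31 in WT cords. Nfkb1 followed with 4.99 in KO cords and 4.15 in WT cords, and the other 6 members had means of 1.34 to 3.34 FPKM in KO cords and 0.675 to 2.36 in WT cords, with Tnfaip3 lowest in both. Neighbours in the WT order whose library ranges did not overlap were Nfkbib over Rela, Rela over Nfkb1 and Nfkb1 over Relb, and the remaining neighbours were not apart beyond their spread.

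In the cultures Rela led, with 20.5 ± 1.35 FPKM under miR-146a LNA and 20.8 ± 0.85 under control LNA (SD, n = 3 each). Nfkbib had 17.3 FPKM under miR-146a LNA and 18.4 under control LNA, and Nfkbia 11.7 and 11.8 in the same order, and in both groups the ranges of these 3 members were apart. Nfkbiz, Nfkbie and Tnfaip3 had means between 1.07 and 2.26 FPKM. The remaining 4 subunits were lowest. Relb had 0.799 FPKM under miR-146a LNA and 0.577 under control LNA, Nfkb1 0.430 and 0.456, Rel 0.261 and 0.344, and Nfkb2 0.220 and 0.291, each in that order. In neurons of this kind Rela was therefore the one subunit above 1 FPKM, whereas in cords all 5 subunits had means above 1 FPKM in both genotypes. Cord and culture libraries differ in RNA makeup, and levels between them were not tested.

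**Figure D5:**
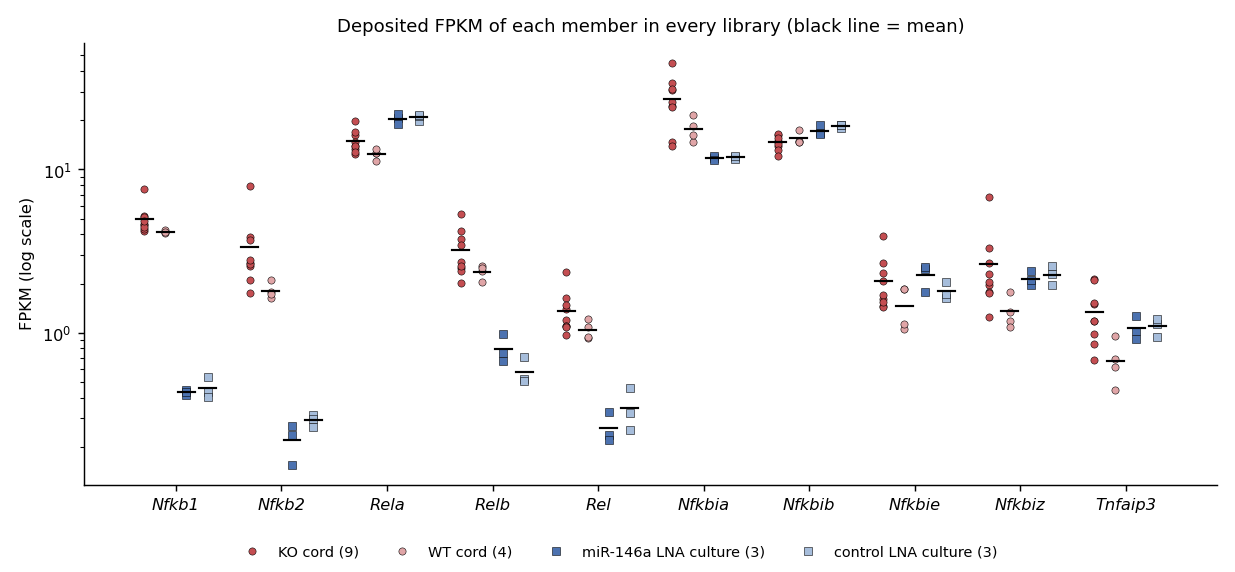
Deposited FPKM of each member on a log axis, 1 point per library and a black line at the group mean, for KO cords, WT cords, miR-146a LNA cultures and control LNA cultures, left to right in each column. Nfkb1, Nfkb2, Relb and Rel lie under 1 FPKM in every culture and near or above 1 FPKM in every cord, while Rela and Nfkbib lie above 10 FPKM throughout.

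For each member the genes with the closest pattern were sought among 16675 genes with a mean of at least 1 normalised CPM, by Pearson r of log2 CPM over the 13 cords. For Nfkb2, Themis2 was among the closest (r = 0.98, Spearman rho = 0.97). Nfkbiz was closest to Clec4a1 and Hist1h3c (r = 0.97 each), and Nfkbia to Aoah and Txnip (r = 0.97 each). Tnfaip3 was closest to Ppp1r3b and AU021092 (r = 0.97 each), and Nfkbie to Gadd45b (r = 0.94) and Nrm (r = 0.93), Gadd45b being itself on the target list. For the subunits the closest genes were Amotl1 and Ptpn1 for Nfkb1 (r = 0.98 each), Tram1 (r = 0.98) and Cd34 (r = 0.97) for Rela, Man2b2 and Gpx1 for Relb (r = 0.97 each), and Lst1 and Kctd12 for Rel (r = 0.95 each). Nfkbib was closest to Gpank1 and Eif1b (r = 0.95 each). Over the 11 cords without KO replicate 7 and the library labelled knockout replicate 9, these r ran from 0.84 for Nfkbib with Eif1b to 0.97 for Nfkb1 with Ptpn1. These values describe the same libraries that chose the genes.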

How the data were processed

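RNA from 13 mouse spinal cords and 6 motor neuron cultures was sequenced after removal of ribosomal RNA, per the submitters' design notes. Per the submitters' processing notes, STAR 2.7.9a1 aligned reads to GRCm38 and featureCounts counted them, and the design notes add that uniquely aligned, unambiguous reads were kept. The strand setting is not given in the sources used here. The count column deposited by the authors was used for every test. The CPM column deposited by the authors was read for the unit check only, as was the TPM column deposited by the authors. The authors' deposited FPKM, which divide by gene length, were used to order levels. Symbols came from GENCODE M21 for 55141 genes (99.4%), and promoter and microRNA sequences from RefSeq.

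Libraries were grouped by genotype or LNA label. Tests were made in R 4.3.3 with edgeR 4.0.16 (quasi-likelihood, robust), after its default filter on low counts, TMM scaling and Benjamini-Hochberg adjustment over all tested genes, at a threshold of 0.05. Standard errors came from the fold change and the F value. Alternatives were limma 3.58.1 (voom with quality weights), DESeq2 1.42.0, other scalings, no filter, leaving out libraries and, for cultures, a replicate block. Likeness used log2 CPM with a prior count of 2 and named 2 genes per member, of which 1 is not reported here. The fits were tested on simulated data. Named genes were the 10 members, Irak1, Traf6 and, per pathway list, up to 4 called genes or else the 2 with the smallest p. Members and lists were chosen with earlier results of these data known. At these depths 3 counts came to 0.0758 to 0.107 CPM (cords) or 0.0458 to 0.0738 CPM (cultures), which covers counting error only. No label names a batch, and the labels give the cords no replicate numbers.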

Additional observations from a re-analysis of the deposited data

Results flagged for a closer look

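KO replicate 7 stood apart from the other 8 KO cords for 5 members, by the gap between the highest library and the next as a share of the group's range. That share was 0.757 for Nfkb1, 0.682 for Nfkb2, 0.655 for Nfkbiz, 0.584 for Rel and 0.548 for Nfkbie, all above Dixon's critical value for 9 samples. Chance flags about 1 in 20 groups, and the 5 members share the library, so the flags are not independent. The same library had the highest summed markers of skeletal muscle, fibroblasts, microglia, astrocytes and red blood cells. Their part in these values was not tested. Without KO replicate 7 the log2 fold changes of KO over WT cords remained positive for 9 of 10 members.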

How the results depend on the processing

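The count of members called in KO over WT cords was 0 in the main test and 1 (Tnfaip3) with DESeq2, with and without its replacement of outlying counts, and 0 in the other settings run. In the cultures it was 0 in all 14 settings. For the difference between the effects it was 0 in the main test and 1 (Nfkb2) without KO replicates 7 and 9. Over 21 settings 1 to 7 members were higher in KO cords at an unadjusted p under 0.05 and none lower, and every member kept its sign. In cultures Tnfaip3 ran from -0.22 to 0.0147 as 1 culture at a time was left out, and reversed to 0.0147 without miR-146a LNA replicate 2 and 0.000178 without control LNA replicate 3. The interaction of Relb reversed to -0.0238 with library size scaling, -0.15 with limma and -0.0314 without KO replicates 7 and 9. Leaving out 1 library at a time left the count of members called in cords and in cultures at 0. Genes called over the whole table varied more, from 0 in edgeR to 388 in DESeq2 in cords and from 778 without control LNA replicate 2 to 2261 without a filter in cultures, where library size scaling gave 741 higher and 831 lower calls against 458 and 1177 in the main test. A fit with the replicate number as a block in the cultures called 0 members and 1793 genes, against 1635 without it, but same-numbered cultures did not deviate together (r = 0.010, -0.050 and 0.006), so the numbers were not taken to pair them, and no culture correlated best with its own number. The causes of these changes were not tested.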
